A study of Mus musculus with 2 samples.

Results

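The ACTH receptor gene Mc2r and the genes of its accessory proteins, Mrap and Mrap2, were examined for open chromatin in the mouse adrenal gland. They are 3 of 21884 protein-coding genes and were chosen by name, though with earlier results of these data known. Every deposited peak and footprint within the gene body and 50 kb to each side was taken from both libraries, and its distance to each annotated start was measured. The assay was DNase-seq, in which DNase I cuts the accessible DNA of isolated nuclei. The tissue came from male B6CASTF1/J mice, an F1 hybrid strain, as adults of 18 to 20 months. Both libraries belong to 1 group, with biological replicate numbers 1 and 2 and technical replicate number 1 in each, so no condition was compared with another. The labels list a separate tissue sample for each library and a single donor entry, so it is not stated whether they came from different animals, and the spread between them may be technical. The labels name no dissection of the gland. In such tissue, fewer cells with a region open and less accessibility per cell cannot be told apart.

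ACTH, the pituitary hormone that drives glucocorticoid synthesis, acts on the adrenal cortex through MC2R, a melanocortin receptor that couples to Gs and raises cyclic AMP, which activates protein kinase A. MC2R depends on MRAP, a small single-pass membrane protein that assembles as an antiparallel homodimer, to reach the cell surface and to bind ACTH. MRAP2 is the paralog of MRAP and is best known for modulating MC4R, the melanocortin receptor of hypothalamic appetite control. In mice, Mrap and Mc2r are also known from adipocytes, where ACTH stimulates lipolysis.

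The regions shown first have footprints or consensus letters that are described below. Regions 25567 and 28227 bp upstream of Mrap, both taller in mean height than the Mrap intron region, are not among them. Shown are both promoters, 1 intron region of Mrap, and 1 far upstream region of each accessory protein gene. All are on the + strand of GRCm38, the assembly that mm10 names, and capitals mark bases under a footprint, a short protected stretch inside accessible DNA, in both libraries. The Mrap promoter is the central 300 bases of its region (chr16:90738110-90738409), the Mrap intron region is whole (chr16:90740081-90740300), and so are the region far upstream of Mrap (chr16:90694821-90695000), the Mrap2 promoter region (chr9:87144181-87144420) and the region far upstream of Mrap2 (chr9:87098121-87098280).
Mrap promoter: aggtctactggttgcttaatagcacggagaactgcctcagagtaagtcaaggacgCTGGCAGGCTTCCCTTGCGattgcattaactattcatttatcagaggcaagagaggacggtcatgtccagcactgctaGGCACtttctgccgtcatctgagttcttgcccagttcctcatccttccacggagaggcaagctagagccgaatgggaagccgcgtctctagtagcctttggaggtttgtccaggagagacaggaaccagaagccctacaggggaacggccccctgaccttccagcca
Mrap intron: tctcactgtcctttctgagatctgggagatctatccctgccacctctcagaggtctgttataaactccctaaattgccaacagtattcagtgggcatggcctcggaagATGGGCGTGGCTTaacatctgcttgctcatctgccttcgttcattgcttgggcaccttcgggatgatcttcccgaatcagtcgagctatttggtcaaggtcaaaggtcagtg
Mrap far upstream: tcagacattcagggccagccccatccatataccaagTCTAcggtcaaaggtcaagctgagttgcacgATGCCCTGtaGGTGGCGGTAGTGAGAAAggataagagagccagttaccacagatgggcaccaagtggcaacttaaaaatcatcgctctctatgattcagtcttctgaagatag
Mrap2 promoter: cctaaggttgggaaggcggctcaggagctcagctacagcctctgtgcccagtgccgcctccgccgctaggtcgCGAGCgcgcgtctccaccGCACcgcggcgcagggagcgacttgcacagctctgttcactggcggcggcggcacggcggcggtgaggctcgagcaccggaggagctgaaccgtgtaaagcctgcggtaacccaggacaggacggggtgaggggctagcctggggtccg
Mrap2 far upstream: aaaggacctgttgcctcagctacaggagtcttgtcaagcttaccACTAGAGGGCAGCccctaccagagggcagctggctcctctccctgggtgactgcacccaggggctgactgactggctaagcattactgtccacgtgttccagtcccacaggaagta

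The libraries held 98630 peaks in replicate 1 and 118249 in replicate 2 on the longer of their peak lists, and 62110 and 72815 in the same order on the shorter. Peak height is the authors' signal, normalised for read depth in a way the sources do not spell out. Heights came in whole multiples of a step of 0.00531 in replicate 1 and 0.00750 in replicate 2, and the number of reads is not given. Overlapping peaks of the longer lists were merged into 143793 regions, of which 65778 (45.7%) held a peak of both libraries and are called shared here. Heights in shared regions had a Spearman rho of 0.922 between the libraries, across regions of the same pair. Among markers of the tissue, 5 of 8 adrenal cortex genes had a shared region within 1 kb of a start, with none at Cyp21a1, Hsd3b1 and Mc2r. The same held for 3 of 8 chromaffin genes of the medulla, Chga, Chgb and Slc18a1, while the defining catecholamine enzyme genes Th, Dbh and Pnmt had none. It held for 6 of 7 adipocyte genes and for 0 of 6 hepatocyte genes, against 64.5% of all protein-coding genes. The cortex share of 62.5% is thus close to that of all genes and does not by itself mark the tissue.

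Both accessory protein genes, and not the receptor gene, were open at the promoter. A gene is called open where a shared region lies within 1 kb of a start of 1 of its protein-coding transcripts. This was so for 2 of the 3 genes, Mrap and Mrap2, against 64.5% of all protein-coding genes. At both, the region overlapped an annotated start in each library. At Mc2r, no peak of either list was listed within 1 kb of its only start in either library. The deposited files of false discovery rates listed no position within 1 kb of the Mc2r start in either library, whereas 65.5% of all genes had a listed position there in both. These rates come from the same libraries as the peaks, so they are not independent evidence.

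**Figure D1:**
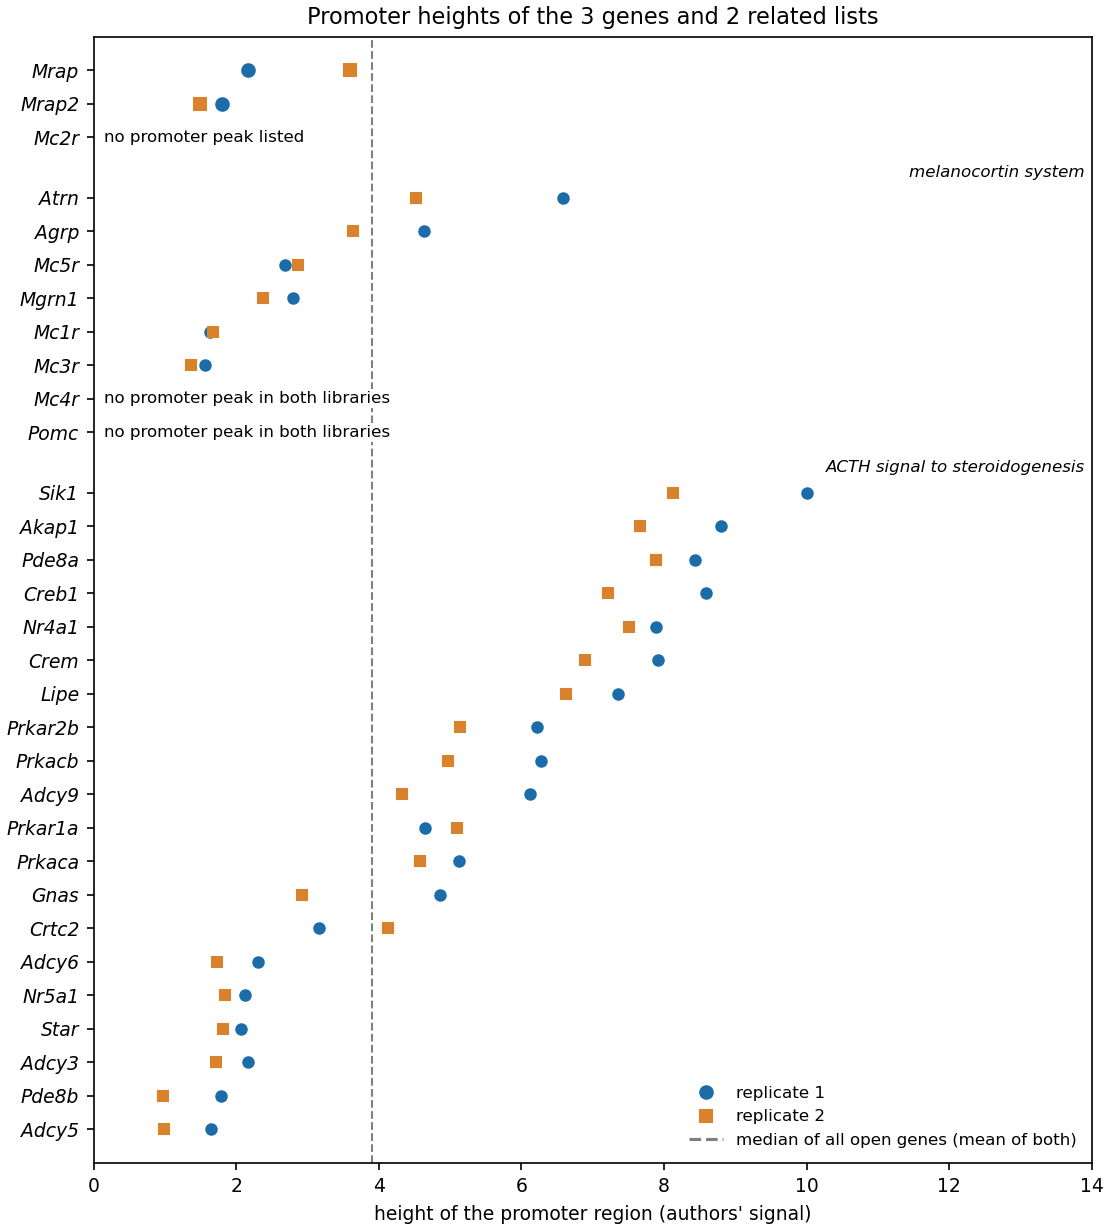
Height of the promoter region in replicate 1 (circles) and replicate 2 (squares), in the authors' signal, for the 3 genes and for the genes of the melanocortin and ACTH signalling lists. The dashed line is the median mean height of all open genes (3.91); Mrap lies at 2.16 and 3.60, Mrap2 at 1.80 and 1.49, and Mc2r has no listed promoter peak.

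Mc2r (ENSMUSG00000045569.7) lies on the minus strand at chr18:68406907-68429320, with 1 annotated transcript and so 1 start, at position 68429320. The peak nearest to the start was 1284 bp downstream in replicate 1, with a height of 0.860, and 1180 bp downstream in replicate 2, with a height of 1.10. These overlapped in 1 region inside an intron (chr18:68427738-68428140), with a mean height of 0.981 ± 0.171 (SD, n = 2). The region is of middling height for its kind, at the percentile 50.2 among 43090 shared distal regions, which are those more than 1 kb from every protein-coding start and had a median of 0.976. It was on the shorter peak list of both libraries as well. Its lowest false discovery rate was 0.000205 in replicate 1 and 2.59e-05 in replicate 2. It held 3 footprints in replicate 1 and 5 in replicate 2, with 1 of each overlapping a footprint of the other library.

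Few genes with no open promoter had a shared region just outside the promoter window, on either side of a start. Of the 7760 genes not open, 410 (5.28%) had a shared region between 1 and 2 kb from a start. With a window of 2 kb, all 3 genes would count as open, against 66.4% of all genes. The sequence within 500 bp of the Mc2r start was poor in GC, at 40.9% against a median of 54.8% over all starts. Its ratio of observed to expected CpG was 0.155, against a median of 0.523. Starts of that kind were mostly not open: of 7010 genes with every start at a CpG ratio of 0.35 or less, 849 (12.1%) were open. Mrap had 55.2% GC and a CpG ratio of 0.446 at its protein-coding start. The Mrap2 starts had 57.9% and 57.8% GC and ratios of 0.549 and 0.565, so both accessory genes were near the medians. By distance to the nearest shared region, the genes next to Mc2r were Esrp1 at 1178 bp, P2ry12 at 1179 bp, 4931429L15Rik at 1182 bp and Aoc2 at 1183 bp.

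The tallest regions around Mc2r lay far upstream. Of 8 regions within the window, 6 were shared (75.0%, exact Clopper-Pearson 95% interval 34.9% to 96.8%, counting error only). That interval includes the share of 45.7% over all regions of the genome. A pair of neighbouring intergenic regions stood out. The nearer of them, 45401 bp upstream of the start (chr18:68474721-68474920), had heights of 1.89 in replicate 1 and 2.29 in replicate 2, with a mean of 2.09 ± 0.281. The other, 45741 bp upstream (chr18:68475061-68475240), had heights of 1.74 and 2.59 in replicates 1 and 2, with a mean of 2.17 ± 0.607. Both were tall for shared distal regions, at the percentiles 81.3 and 82.3, and were on the shorter lists of both libraries. All of their footprints were found in both libraries, 3 in the nearer region and 2 in the farther one. A match to a consensus of CTCF, a zinc finger protein bound at many chromatin boundaries, lay within a footprint of each library in the nearer region. No sequence is printed for this locus.

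The remaining 3 shared regions of the Mc2r window were higher in replicate 2, as the others were. At 16481 bp upstream the heights were 0.552 in replicate 1 and 1.33 in replicate 2, and this region was on the shorter list of replicate 2 alone. At 26961 bp upstream they were 0.510 and 0.817 in replicates 1 and 2, and at 42481 bp upstream 0.510 and 0.735. The first of these had a log2 ratio of replicate 1 over replicate 2 of -1.27, at the percentile 1.71 of all shared regions, promoter and distal together. Few regions of the genome thus leaned as far towards replicate 2. The 2 regions of 1 library alone had heights of 0.287 in replicate 1 and 0.592 in replicate 2. The density of shared regions, 4.90 per 100 kb of window, was close to the median of 4.69 over all genes. AC021063.1, a processed pseudogene, was the only other gene with its start in the window.

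**Figure D2:**
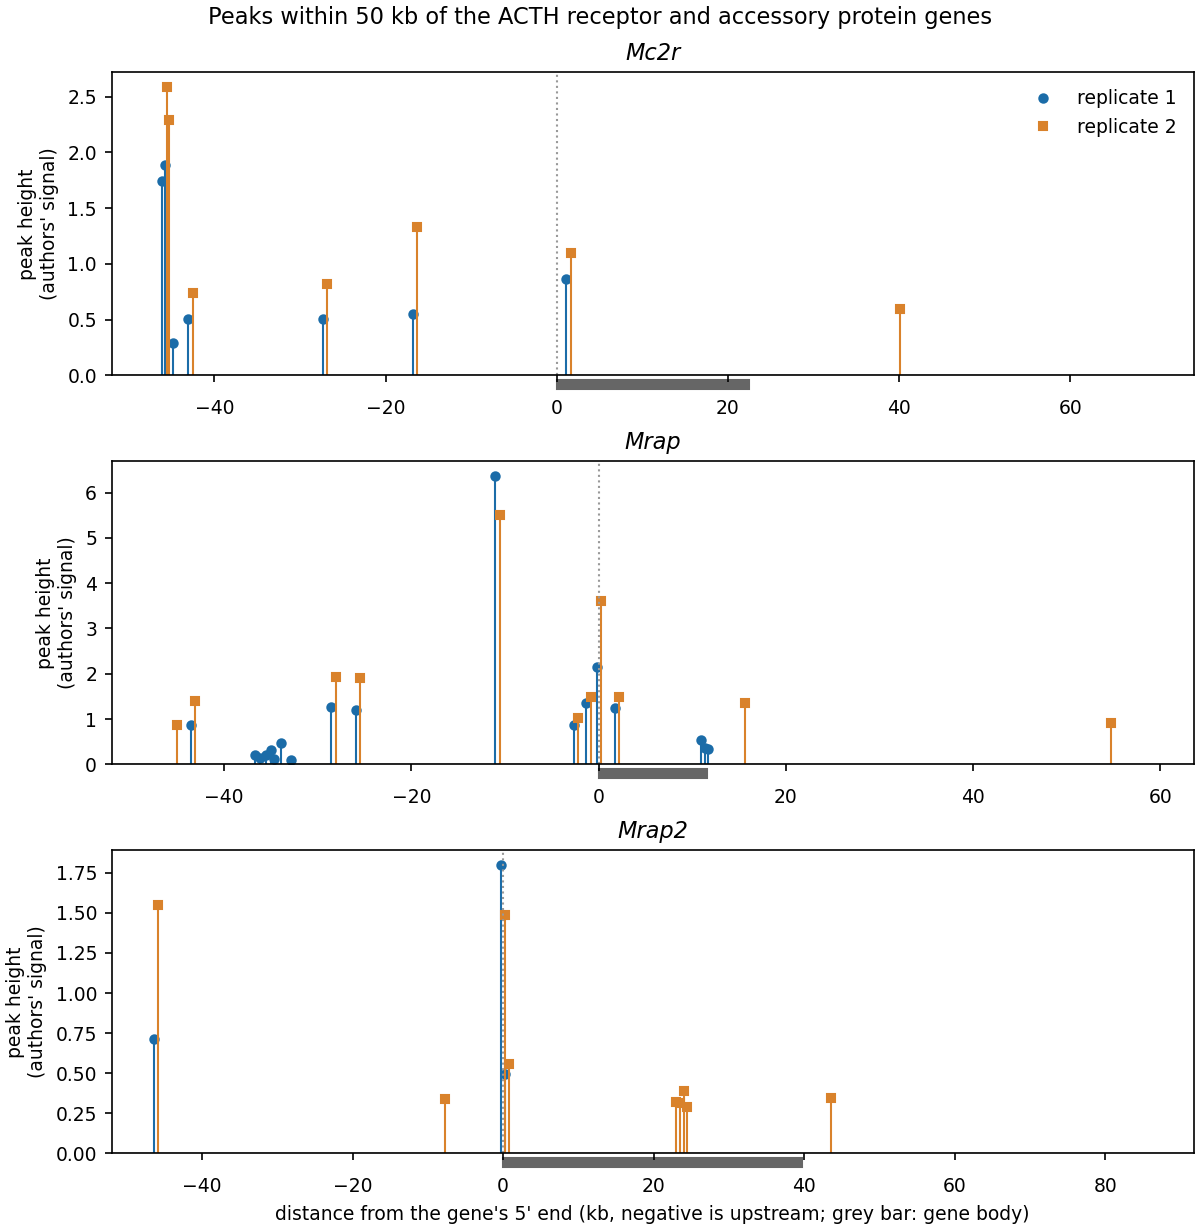
Peak height in the authors' signal against distance from the 5′ end of each gene, in kb, for every region within the gene body (grey bar) and 50 kb to each side, with circles for replicate 1 and squares for replicate 2. The paired symbols of a shared region are set slightly apart sideways; the tallest Mc2r regions lie 45401 and 45741 bp upstream, the tallest Mrap region is the Mis18a promoter (6.37 and 5.51), and the cluster of low circles upstream of Mrap has no squares.

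Mrap (ENSMUSG00000039956.9) lies on the plus strand at chr16:90738207-90749785 and has 4 annotated transcripts. Its protein-coding transcript starts at position 90738324, as do 2 others, and a transcript annotated for nonsense-mediated decay starts at 90738207. The promoter region (chr16:90738081-90738440), which covered both starts, had heights of 2.16 in replicate 1 and 3.60 in replicate 2. The region leaned further towards replicate 2 than most shared regions, with a log2 ratio of -0.74 at the percentile 11.1. The mean of 2.88 ± 1.02 (SD, n = 2) ranked 8965 of 14124 open genes, below their median of 3.91. Divided by the step of each library, these heights are 407 and 480 steps, which would be cuts if 1 step is 1 cut. The genes nearest in mean promoter height over the 2 libraries were Rpp30, Ccdc50, Cenpi and Cops5, all at 2.88.

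The Mrap promoter held 6 footprints in each library, and 2 of them were found in both. One shared footprint, with its centre 33 bp upstream of the nearest start in replicate 1, covered CTGGCAGGCTTCCCTTGCG, a stretch of 19 bp. In replicate 2 it was 24 bp long. The other lay between the starts, 36 bp downstream of the upstream one in replicate 1, where it covered CTAGGCAC. Letters of the GATA consensus, TGATAA or its reverse complement, occurred across the upstream start and, from their first base, 94 bp downstream of the downstream one, with no footprint over them. The letters TTGCTTAA, which match the consensus TTGCNNAA of C/EBP factors, began 86 bp upstream of the upstream start and were overlapped in part by a footprint of replicate 1 alone. In the central 150 bp, on either strand, 6.07% of all shared regions held a GATA match (AGATAA or TGATAA) and 6.25% a C/EBP match. Of the matches in the Mrap promoter, only the GATA match at the upstream start lies in that central window, so the C/EBP share is not for a match placed like this one. These matches are descriptions of the sequence and not sites.

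**Figure D3:**
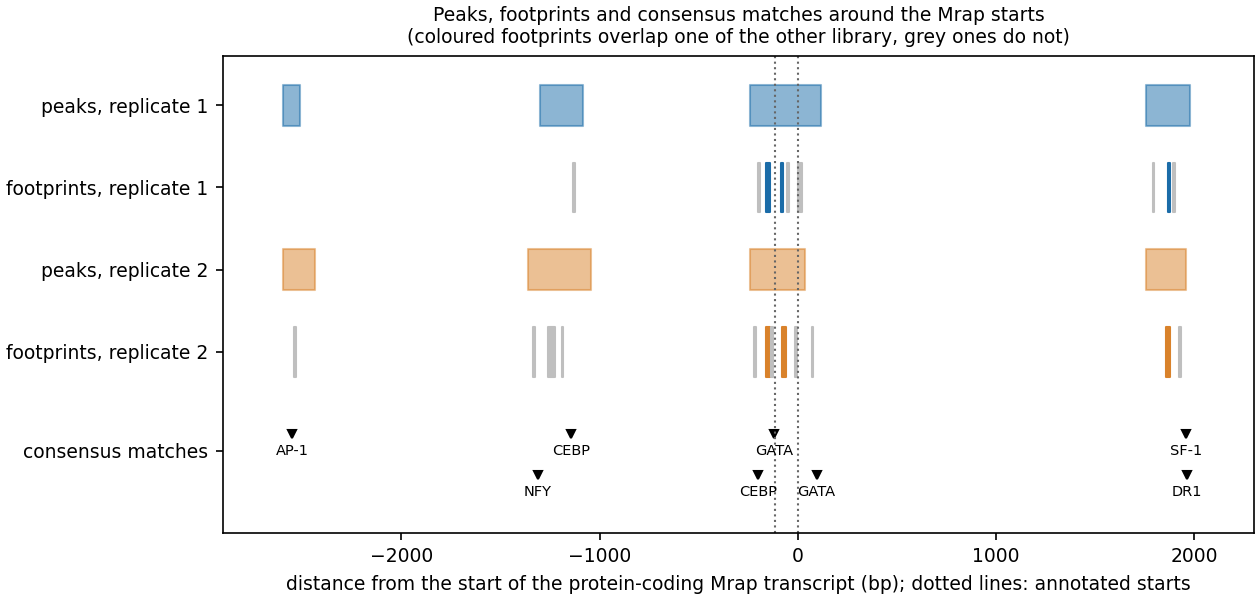
Peaks, footprints and consensus matches (triangles) around the Mrap starts, as distance in bp from the start of the protein-coding transcript; dotted lines are the annotated starts. Filled blue or orange footprints overlap a footprint of the other library and grey ones do not: 2 of 6 in the promoter are filled in each library, and no footprint covers the SF-1 and DR1 matches in the intron region.

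Close to the Mrap promoter were 3 more shared regions, all lower than it. The region 1757 bp downstream of the protein-coding start, in an intron, had heights of 1.24 in replicate 1 and 1.48 in replicate 2 (mean 1.36 ± 0.166). The region 927 bp upstream of the nearest start, which is 1044 bp from the protein-coding one, had 1.35 and 1.48 in replicates 1 and 2 (mean 1.42 ± 0.0926). The region 2322 bp upstream had 0.860 and 1.03 in replicates 1 and 2 (mean 0.948 ± 0.124). Each of these pairs was close, and the regions lay at the percentiles 66.2, 68.1 and 48.3 of shared distal regions. None of them was on the shorter list of replicate 1, and the region 2322 bp upstream was on neither shorter list. The lowest false discovery rate of that region was 0.0374 in replicate 1 and 0.0103 in replicate 2.

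The intron region contained the letters AGGTCAAAGGTCA, 1961 bp downstream of the protein-coding start. They are a direct repeat of AGGTCA with 1 base of any kind between the copies (DR1), an element that PPAR and RXR heterodimers and HNF4 are known to bind. They overlap CAAGGTCA, a consensus of SF-1, the nuclear receptor encoded by Nr5a1 that controls steroidogenic genes, which begins at 1959 bp. The overlapping bases belong to both matches. The match lies outside the central 150 bp of the region, so shares were also taken over the central 220 bp, which is the width of this region. There, 31 of 65778 shared regions (0.0471%) held DR1 letters and 5.04% held SF-1 letters, against 0.0304% and 3.69% in the central 150 bp. No footprint of either library covered them. The only footprint of this region found in both libraries was centred 1871 bp downstream in replicate 1 and read ATGGGCGTGGCTTA.

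Upstream of Mrap, the tallest region of the window was the promoter of a neighbour. At 10647 bp upstream, the region at the start of Mis18a, a gene for a centromere licensing protein, had heights of 6.37 and 5.51 in replicates 1 and 2 (mean 5.94 ± 0.608), and it also lay at the start of the lincRNA Gm17518. Regions 25567 and 28227 bp upstream had heights of 1.20 and 1.90 in replicates 1 and 2 (mean 1.55 ± 0.493) and of 1.27 and 1.92 (mean 1.60 ± 0.457), and both were intergenic. The most distant shared region, 43207 bp upstream, had 0.876 and 1.39 in replicates 1 and 2 (mean 1.13 ± 0.362). In that last region the letters CCTGTAGGTGGC, which match the same CTCF consensus (CC, any 3 bases, AGG, any base, GGC), were covered whole by a footprint of 30 bp in replicate 2. In replicate 1 they were covered in part, by a pair of footprints that left the bases between them free. The region is the one given above as far upstream of Mrap.

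Many regions of the Mrap window were listed in replicate 1 alone. Of 21 regions, 8 were shared (38.1%, interval 18.1% to 61.6%), 10 held a peak of replicate 1 only and 3 a peak of replicate 2 only. The share of 45.7% over all regions of the genome lies inside that interval. The regions of replicate 1 only were low, from 0.106 to 0.542, while those of replicate 2 only had heights from 0.870 to 1.35. Of those of replicate 1 only, 7 formed a run of 4060 bp between 32507 and 36387 bp upstream (chr16:90701641-90705700). All 7 were on the shorter list of replicate 1 with false discovery rates between 5.64e-54 and 2.44e-06, although their heights were only 0.106 to 0.478, and replicate 2 had no listed position in them.

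Mrap2 (ENSMUSG00000042761.14) lies on the plus strand at chr9:87144306-87184045 and has 3 transcripts, which start at 87144306 and 87144343. Its promoter region had heights of 1.80 in replicate 1 and 1.49 in replicate 2. The mean of 1.65 ± 0.217 (SD, n = 2) ranked 11127 of 14124 open genes, so it was lower than Mrap in both libraries. With a log2 ratio of 0.27, it was 1 of only 2 among the 17 shared regions of the windows that were higher in replicate 1, the other being the Mis18a promoter. It was rich in GC (70.0%), and both footprints of replicate 1 were found in replicate 2, which had 5. Those of replicate 1 read GCTAGGTCGCGAGC and GCACCGCGGCGC, centred 55 and 29 bp upstream of the nearest start. No letters of the 11 factors searched at first, and none of the looser CTCF consensus, occurred in this region. The genes nearest in mean promoter height were Rhbg, Ampd3 and Abracl at 1.65 and Espn at 1.64.

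Only 2 other shared regions lay in the Mrap2 window. One, 258 bp downstream of the nearest start in an intron (chr9:87144601-87144940), had heights of 0.494 and 0.555 in replicates 1 and 2 (mean 0.524 ± 0.0433), at the percentile 6.61 of shared promoter regions. The other was 46026 bp upstream in intergenic sequence, with heights of 0.711 and 1.55 in replicates 1 and 2 (mean 1.13 ± 0.595). That region was among those of the genome that leaned furthest towards replicate 2, with a log2 ratio of -1.13 at the percentile 2.97. A footprint of both libraries lay in it, of 23 bp in replicate 2, where it read CTTACCACTAGAGGGCAGCCCCT. The region holds the letters CCACTAGAGGGC, which match a looser form of the CTCF consensus, with any base in place of the last G of AGG, that was added after the sequence had been seen.

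The Mrap2 window had the lowest density of the 3, at 2.15 shared regions per 100 kb, the percentile 27.2 of all genes, against 7.17 for Mrap, the percentile 69.9. Of its 9 regions, 3 were shared (33.3%, interval 7.49% to 70.1%), against 45.7% over the genome, which lies inside the interval. None was of replicate 1 alone and 6 were of replicate 2 alone. Those 6 were low, with heights from 0.292 to 0.390. Of them, 4 lay close together in an intron, from 22690 to 24040 bp downstream of the nearest start, and none was on the shorter list. Most regions of 1 library were thus of replicate 1 around Mrap and all were of replicate 2 around Mrap2.

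Footprints of the 3 windows were compared between the libraries, without a test. Around Mc2r, 8 of 13 footprints of replicate 1 and 8 of 24 of replicate 2 overlapped one of the other library. Around Mrap these were 13 of 34 and 12 of 35, and around Mrap2 3 of 4 and 3 of 10. The counts are small, and the shares of replicate 2 were close to each other. Over the genome 53.7% of footprints in replicate 1 and 44.8% in replicate 2 did so. Of the 11 consensus sequences searched at first, matches overlapped by footprints of both libraries were found for CTCF alone, in 2 of the 17 shared regions of the windows. With the looser letters there were 3 such regions, 1 in each window, all between 43207 and 46026 bp upstream of the start. Among all shared distal regions the stricter letters were found in 12.7% and the looser ones in 25.5%, in the central 150 bp. These shares count letters with or without a footprint, so they are not the same measure as the counts here. The looser letters were added after the Mrap2 region had been seen. The counts are therefore not read as a trait of these windows. None of the 17 held CRE letters, TGACGTCA, the element bound by the protein kinase A target CREB, which were found in 0.976% of all shared regions, so a count of 0 says little.

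Most regions around these genes were higher in replicate 2. This was so for 6 of 6 shared regions of the Mc2r window, with a median log2 ratio of replicate 1 over replicate 2 of -0.55. It was so for 7 of 8 around Mrap (median -0.43) and for 2 of 3 around Mrap2 (median -0.17). Over the genome, 69.1% of shared distal regions were lower in replicate 1, with a median of -0.21, whereas 44.0% of open promoters were, with a median of 0.05. Adrenal cortex markers went the other way, with 0 of 5 open promoters lower in replicate 1, a median of 0.37 and summed heights of 16.0 in replicate 1 and 12.2 in replicate 2. That direction was not particular to cortex genes. Medians were 0.29 for chromaffin markers (1 of 3 lower), 0.22 for the melanocortin list (2 of 6) and 0.23 for the ACTH signalling list (2 of 20). These are all promoters, whereas 6 of 6 shared regions around Mc2r and 6 of 8 around Mrap were distal. Of the adipocyte markers, 5 of 6 were lower in replicate 1, with a median of -0.40 and summed heights of 8.77 and 10.5. Pparg was the exception, with 1.72 in replicate 1 and 1.28 in replicate 2, and Adipoq, a defining marker, was not open. On the longer adipocyte gene list described below, 6 of 9 were lower in replicate 1, with a median of -0.36. Their summed heights were nearly equal, at 25.4 in replicate 1 and 26.2 in replicate 2. The part of fat tissue, or of the share of cortex, in the ratios around the 3 genes was not tested.

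**Figure D4:**
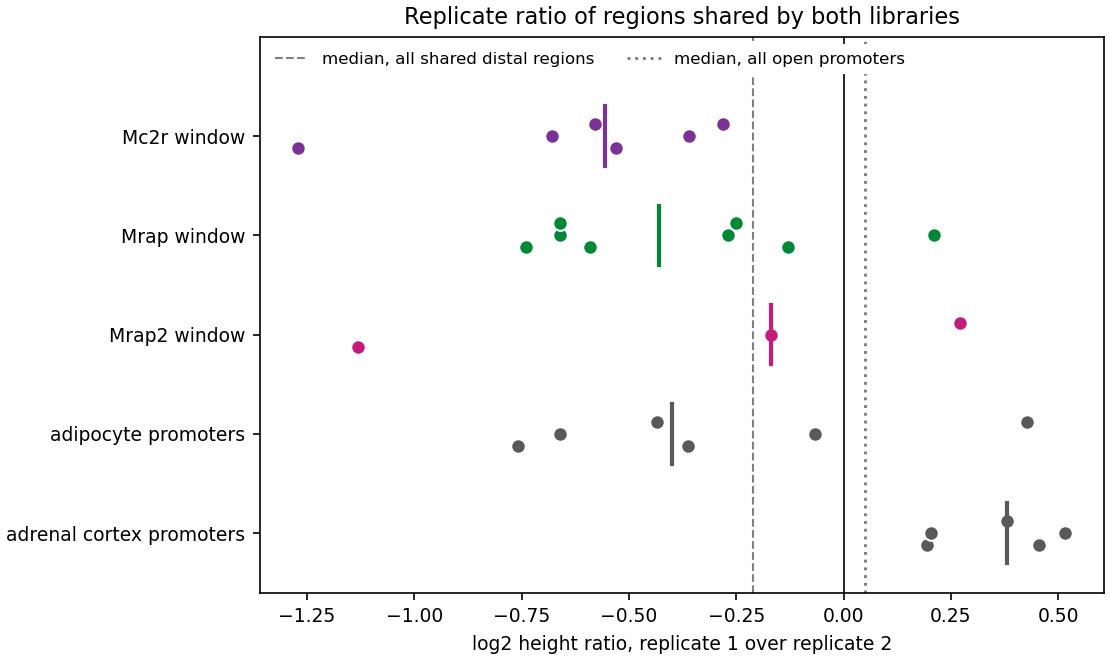
Log2 height ratio of replicate 1 over replicate 2 for each shared region around Mc2r, Mrap and Mrap2, and for open promoters of adipocyte and adrenal cortex markers; short vertical bars are medians, and the dashed and dotted lines are the medians of all shared distal regions (-0.21) and all open promoters (0.05). All 6 Mc2r points and 7 of 8 Mrap points lie below 0, and all 5 adrenal cortex promoters lie above it.

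**Figure D5:**
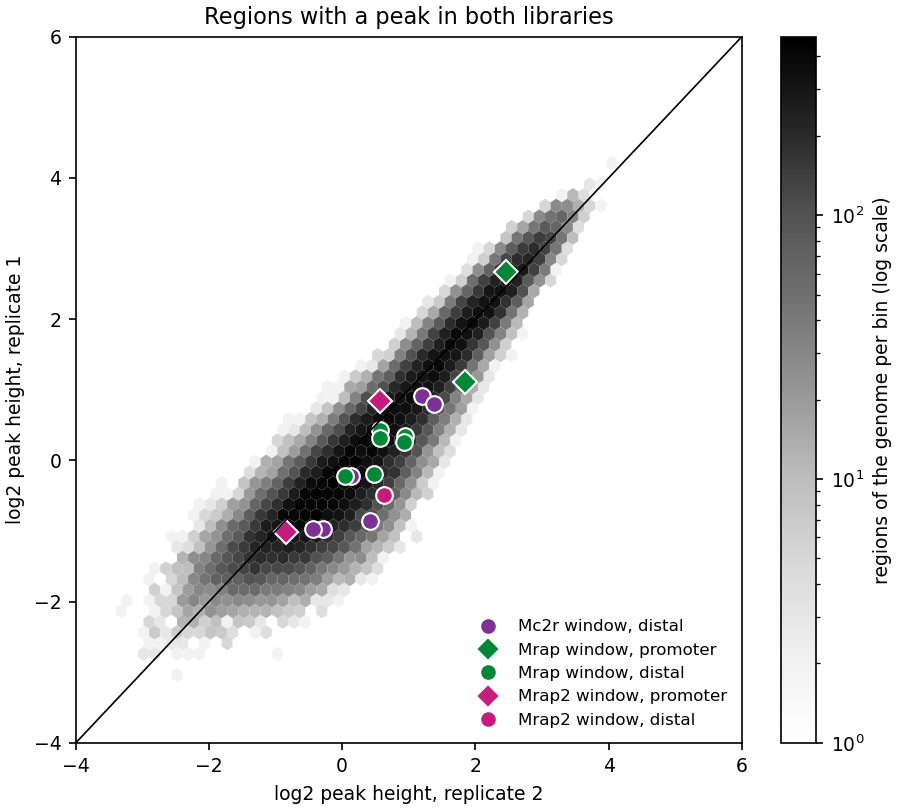
Log2 peak height in replicate 1 against replicate 2 for every shared region of the genome (grey bins, log scale of counts) with those of the 3 windows on top; diamonds are within 1 kb of a protein-coding start and circles are distal. Most of the 17 coloured points lie below the line of equal height, inside the cloud of other regions.

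The genes that act with the receptor were described from lists chosen with earlier results of these data known. In the melanocortin list, Asip was not matched in the annotation used, and 6 of the other 8 genes (75.0%) were open, against 64.5% of all genes. The highest were Atrn, which encodes attractin, with 6.58 in replicate 1 and 4.52 in replicate 2, and Agrp, which encodes the agouti-related antagonist, with 4.63 and 3.63 in replicates 1 and 2. The Agrp value belongs to a region 893 bp from its start. Of the receptors, Mc5r had 2.69 and 2.86 in replicates 1 and 2, Mc1r had 1.63 and 1.67, and Mc3r had 1.56 and 1.36. Mc4r, whose nearest shared region was 140495 bp away, and Pomc, the gene of the ACTH precursor, whose nearest was 4931 bp away, were not open.

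Downstream of the receptor, all 20 genes of the ACTH signalling list were open (100%), against 64.5% of all genes, with a median mean height of 5.04 against 3.91. Sik1, which encodes a salt-inducible kinase regulated by cyclic AMP, was highest, with 10.0 in replicate 1 and 8.13 in replicate 2. Akap1, the mitochondrial anchor of protein kinase A, had 8.80 and 7.66. Gnas, the gene of the Gs alpha subunit to which the receptor couples, had 4.85 and 2.92, and the catalytic subunit gene Prkaca had 5.13 and 4.58. The Gnas value is for the tallest region near any protein-coding start of the gene (chr2:174284320-174346744). Which start that is was not examined, so it need not be that of the Gs alpha transcript. Nr5a1, which encodes SF-1, had 2.12 and 1.84 and Star, which encodes the mitochondrial cholesterol import protein, had 2.07 and 1.81, so their means lay between those of Mrap2 and Mrap. Of the 20 promoters, 2 were lower in replicate 1, with a median log2 ratio of 0.23.

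Of the adipocyte gene list, 9 of 10 genes were open, against 64.5% of all genes, with a median mean height of 1.50. Cebpa had 8.74 in replicate 1 and 8.05 in replicate 2, and Lipe, the hormone-sensitive lipase gene that the ACTH signalling list also holds, had 7.35 and 6.62. The other open genes of the list were lower. Among them were Plin1 at 2.55 and 2.67, Pparg at 1.72 and 1.28, Fabp4 at 1.07 and 1.69 and Lep at 0.887 and 1.50. Cebpa, Lipe and Pparg were higher in replicate 1, unlike Mrap. Mrap, with 2.16 and 3.60, was lower than Plin1 in replicate 1 and higher in replicate 2, and higher than Pparg, Fabp4 and Lep in both. Adipoq, whose nearest shared region was 18636 bp away, was the only gene of the list with none.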

How the data were processed

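Peaks, footprints and false discovery rates were called by the authors separately for each library from filtered alignments to mm10, per the deposited file index. The aligner and the callers were not given in the sources used here. Peak height was the deposited signal of the peak lists. The score deposited with footprints was 0.01 in every row and was not used. The deposited false discovery rate (a q-value) covered only positions listed under 0.05.

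Coordinates are 1-based on GRCm38 with GENCODE vM21, for chromosomes 1 to 19, X and Y, leaving out 54 gene records whose symbol was not unique. Peaks overlapping by 1 bp or more were merged. A region takes the highest peak of each library. Distances run from the start to the nearest edge, to the centre of a footprint or to the first base of a consensus match. Consensus letters were searched in the reference on both strands, and a match with at least 1 base in a footprint counts as overlapped. The alleles of the F1 hybrid were not examined. Where no peak was found it is described as not listed. Work was done in Python 3.11.15 with numpy 2.4.6, pandas 2.3.3 and scipy 1.17.1, and the overlap steps were tested on simulated data.

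The members and lists were chosen with earlier results of these data known. All 3 genes were named, with every shared region of their windows and the footprints of both libraries in some of these. Those in the regions 10647, 25567 and 28227 bp upstream of Mrap and 42481 bp upstream of Mc2r were given in the counts alone. Also named were 2 genes to each side in promoter height or distance, and up to 4 genes of each list by height or absence. Other genes named, the CpG limit of 0.35 and the looser CTCF letters were chosen after their values were seen. With 1 group there was no test between conditions. Alternatives were the shorter peak lists, other starts, windows, flanks, overlaps and heights, and each library alone.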

Additional observations from a re-analysis of the deposited data

How the results depend on the processing

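Of 104 alternative values for 18 results, 78 kept within the limits set and 26 moved, and the cause was not tested beyond what each choice does by construction. On the shorter peak lists the nearest Mc2r region was 1289 bp from the start and Mrap had 4 shared regions. With a flank of 20 kb, Mc2r had 2 shared regions, a highest mean height of 0.981 and 1 footprint in both libraries, and Mrap had 5 shared regions and 8 such footprints. With 100 kb, Mc2r had 12 shared regions, a highest mean of 2.78 and 16 footprints. Mrap then had 14, 11.5 and 27, and Mrap2 a highest mean of 3.31 and 8 footprints. The Mc2r value of 2.78 is also the mean at the promoter of Mc5r (chr18:68337596-68342446), which that wider window takes in. The wider windows of Mrap and Mrap2 take in open starts of Urb1 and Cep162, so these highest means need not belong to the 3 genes. Keeping peaks at or above the median height of their library left 3 shared regions for Mc2r and 1 for Mrap2, and 72.7% of Mrap regions shared. With 1 library alone, regions numbered 8 in either for Mc2r, 11 to 18 for Mrap and 3 to 9 for Mrap2. Footprints then numbered 13 to 24, 34 to 35 and 4 to 10 in that order, and the nearest Mc2r region was 1180 to 1284 bp away. A percent shared cannot be had from 1 library. Without runs of low regions of 1 library, chosen after seeing the data, 57.1% of Mrap regions were shared, and 48.2% of the genome's. Mrap and Mrap2 stayed open and Mc2r not open in each alternative other than windows of 2 and 5 kb, where all 3 were open. No paired analysis was possible because there is 1 group. The number of reads is not given, so the depth needed to list a peak at the Mc2r start cannot be stated.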

Other observations

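The run of low regions upstream of Mrap had many counterparts. Runs of at least 5 regions of 1 library only, with gaps of at most 2 kb, heights of 0.5 or less and a place on the shorter list, numbered 684 with 7280 regions in replicate 1, against 9 with 53 regions in replicate 2. Of the peaks on the shorter lists, 21.3% in replicate 1 and 9.78% in replicate 2 had a height of 0.5 or less. The first region of the run near Mrap (chr16:90701641-90701820) held 5 copies of the SF-1 letters CAAGGCCA, lay wholly in soft-masked repeat sequence and had a height of 0.212 in replicate 1 and no peak in replicate 2. No footprint was listed in it.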
